A study of Homo sapiens with 12 samples.

Results

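The 39 genes described here encode the transporters and enzymes that carry glucose into the cell, break it down to pyruvate, exchange lactate, admit pyruvate to mitochondria or store glucose as glycogen. They were picked by symbol for their place in the pathway, with earlier results of these data known, from the 58735 genes of the count table, and all 39 were among the 16891 genes with enough counts to be tested. They fall into 7 steps. Glucose transport is represented by SLC2A1 and SLC2A3, and the hexose phosphate steps by HK1, HK2, GPI, PFKL, PFKM and PFKP. PFKFB2, PFKFB3 and PFKFB4 set the level of fructose 2,6-bisphosphate, and 11 genes from ALDOA to PKM carry out the triose steps. LDHA, LDHB, SLC16A1, SLC16A3 and BSG handle lactate, 9 genes act at pyruvate entry (PDK1 to PDK4, PDHA1, PDHB, DLAT, MPC1 and MPC2), and PGM1, GYS1 and GBE1 act in glycogen synthesis.

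The counts come from RNA-seq of ES2 cells with an inducible FDX2 knockout (FDX2-iKO). ES2 is a human ovarian cancer line, and FDX2 is a mitochondrial ferredoxin needed for iron-sulfur (Fe-S) cluster assembly. In these cells, which go back to a single clone, the endogenous FDX2 gene was knocked out in every condition, and an editing-resistant FDX2-HA was expressed from a TRE promoter (through tTS and rtTA) for as long as doxycycline (Doxy) was given. The conditions 20% O2 + Doxy and 20% O2 wo Doxy were cultured for 6 days at 20% O2. The conditions 3% O2 + Doxy and 3% O2 wo Doxy were kept for 4 days at 20% O2 and then for 3 days at 3% O2. All 4 conditions, each with 3 libraries, were grown in high-glucose medium, and authentication of the line was not performed. FDX2 loss therefore cannot be told apart from the absence of Doxy itself, nor 3% O2 from the additional day of culture. The study calls its replicates biological, while the labels do not say whether they came from separate cultures, so the p-values measure only the spread between these libraries, which may be technical in part.

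Glycolysis turns glucose into pyruvate and yields ATP and NADH without using oxygen, and lactate dehydrogenase gives back the NAD+ by reducing pyruvate to lactate. With oxygen, pyruvate can instead enter mitochondria and be oxidised by the pyruvate dehydrogenase complex, whose DLAT subunit carries lipoate, a cofactor made by an Fe-S enzyme. When oxygen falls, the transcription factor HIF-1 is known to raise many genes of glycolysis, the lactate exporter SLC16A3 and the kinase PDK1, which switches pyruvate dehydrogenase off. Cancer lines in glucose-rich medium are known for a high glycolytic rate even with ample oxygen.

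Library totals ranged from 24958386 to 34313637 counts. One library, 3% O2 wo Doxy replicate 1, stood apart: 1.20% of its counts lay on antisense genes against 0.343% to 0.559% in the 11 others, and the antisense gene at GAPDH reached 11.9% of the GAPDH count against 0.454% to 1.88%. Results that rest on this library are given with and without it. Replicates spread least in 20% O2 wo Doxy, with a median chi-square per degree of freedom of 1.32. The value was 4.54 in 20% O2 + Doxy, 3.98 in 3% O2 + Doxy and 3.30 in 3% O2 wo Doxy. The tests used the same estimate of spread for all conditions. The hypoxia-induced CA9 (carbonic anhydrase IX) rose from 0.0878 ± 0.0259 to 63.6 ± 23.4 CPM (counts scaled to library size by TMM, SD, n = 3) between 20% and 3% O2 with Doxy. By the test described below, the hypoxia genes NDRG1, BNIP3, ANKRD37, KDM3A, P4HA1, VEGFA, ADM and MIR210HG rose as well, and EGLN3 had too few counts. With FDX2 loss at 20% O2, VEGFA (log2 fold change 1.37) and ADM (2.22) were higher and BNIP3 (-0.26) and ANKRD37 (-0.58) lower. CA9, NDRG1, KDM3A, P4HA1 and MIR210HG did not pass the threshold there. FDX2 itself had only 2 to 13 counts in each library, with Doxy as without, so its count did not check the Doxy labels. VIM, FN1, KRT7 and KRT18 were abundant, the epithelial markers EPCAM, CDH1 and KRT19 had at most 3 counts in any library, and the leukocyte markers had at most 7.

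Between 1.40% and 2.51% of all counts in a library fell on the 39 genes, and GAPDH, ENO1, PKM and LDHA held most of them. The share was 1.81%, 1.70% and 1.62% in the 3 libraries of 20% O2 + Doxy and 1.45%, 1.44% and 1.40% in those of 20% O2 wo Doxy. It was 2.24%, 2.36% and 2.51% in 3% O2 + Doxy and 2.17%, 2.15% and 2.14% in 3% O2 wo Doxy. The 4 conditions thus did not overlap, with the lowest shares in FDX2-deficient cells at 20% O2 and the highest in FDX2-proficient cells at 3% O2. The difference with FDX2 loss was -0.277 percentage points at 20% O2 and -0.217 at 3% O2, and the difference with low oxygen was 0.662 points with Doxy and 0.723 without. Each of these differences had an exact two-sided permutation p of 0.1, the smallest that 3 libraries against 3 allow. In bulk RNA, fewer cells of a kind and less RNA per cell cannot be told apart.

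Per kilobase of exon, the level averaged over the 12 libraries was highest for GAPDH (1504 CPM per kb), followed by ENO1 (674), TPI1 (387), PKM (386), LDHA (344), PGAM1 (256) and PGK1 (175). TPI1 and PKM lay within 1 CPM per kb of each other, well inside their spread. The lowest were PFKFB2 (1.29 CPM per kb), PDK3 (0.987), SLC16A3 (0.777) and PDK4 (0.112). ALDOA, usually an abundant aldolase, averaged only 2.59 CPM per kb, and 53.5% of its exonic bases are shared with other annotated genes (AC093512.1 and AC093512.2), so its count is uncertain. Exons shared with other genes also make the counts of PDK2 (38.6% of bases), LDHB (33.4%), MPC2 (22.5%) and PDHA1 (21.3%) less certain, since the strand setting of the counting is not stated. Counts on annotated pseudogenes came to at most 1.12% of the parent gene.

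Low oxygen and FDX2 loss moved this pathway in different ways at most steps. In cells with Doxy, 17 of the 39 genes were higher at 3% than at 20% O2 and none was lower (edgeR's quasi-likelihood test, adjusted p under 0.05 after Benjamini-Hochberg adjustment over all tested genes). That is 43.6% of the genes, against 2.02% of all tested genes (1.63% higher and 0.385% lower). Their median log2 fold change was 0.34, against -0.0045 over all tested genes. At an unadjusted p under 0.05, 23 of the genes were higher and 5 lower, and DESeq2's Wald test called 22 higher and 1 lower. The 22 genes without a call lay between -1.22 and 0.65, and none of 5 proliferation genes (MKI67, PCNA, TOP2A, CCNB1 and MCM2) was called.

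FDX2 loss at 20% O2 changed 16 of the 39 genes, 4 upward and 12 downward. This is 41.0% of the genes against 35.3% of all tested genes, so the number of changes was near the background, while the split was not: 30.8% of the genes were lower against 17.7% of all tested genes, and 10.3% were higher against 17.6%. The median log2 fold change was -0.15, against 0.0090 over all tested genes. Only 6 of the 16 had at least a 1.5-fold change. The 23 genes without a call lay between -0.35 and 0.20. All 5 proliferation genes fell in the same comparison, MKI67 from 578 ± 8.9 to 223 ± 1.5 CPM (SD, n = 3), and their part in the result was not tested.

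Both effects were measured against the same 20% O2 + Doxy libraries, so they were compared through 3% O2 + Doxy against 20% O2 wo Doxy, which equals the oxygen effect minus the effect of FDX2 loss. By this direct test 29 of the 39 genes differed, 25 with the higher level under low oxygen and 4 with the higher level after FDX2 loss. That is 74.4% of the genes against 35.6% of all tested genes (18.1% and 17.5% in the same directions). The median difference was 0.66 on the log2 scale, against -0.0091 over all tested genes, and the 10 genes without a call lay between -0.25 and 0.17. The 5 proliferation genes were also higher under low oxygen in this comparison, MKI67 by 1.55, and their part in the result was not tested.

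**Figure D1:**
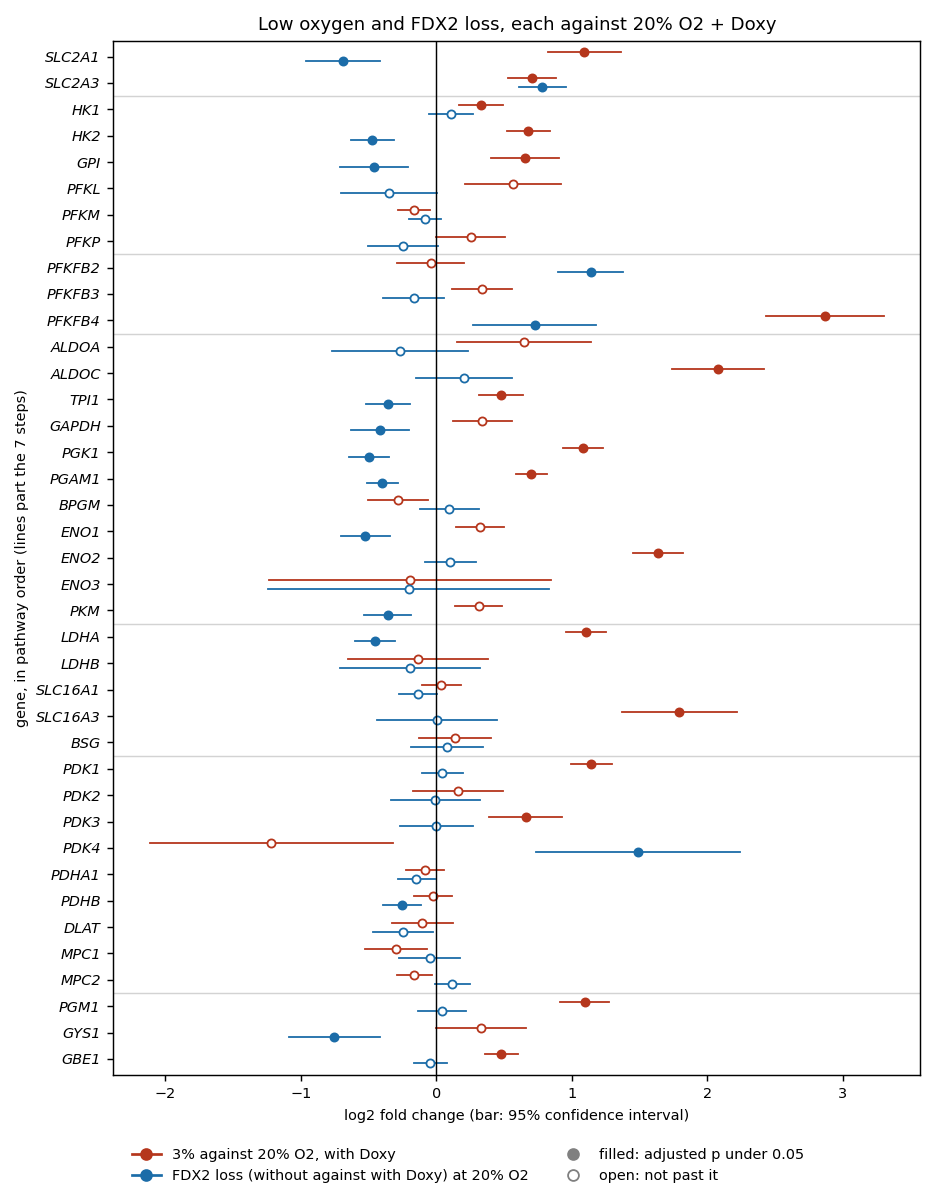
Log2 fold changes of the 39 genes in pathway order, with 95% confidence intervals, for 3% against 20% O2 with Doxy (red) and for FDX2 loss at 20% O2 (blue). Filled circles mark an adjusted p under 0.05. From SLC2A1 to LDHA the red circles of most genes lie right of 0 and the blue ones left of it, while SLC2A3 and PFKFB4 lie right of 0 in both and PFKFB2 and PDK4 rose with FDX2 loss.

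The glucose transporters SLC2A1 and SLC2A3, better known as GLUT1 and GLUT3, went different ways. SLC2A1 stood at 115, 98.6 and 86.6 CPM in 20% O2 + Doxy, at 62.2, 64.3 and 59.8 in 20% O2 wo Doxy, at 181, 207 and 251 in 3% O2 + Doxy and at 157, 179 and 172 in 3% O2 wo Doxy. None of the 4 conditions overlapped, with FDX2-deficient cells at 20% O2 at the bottom. With FDX2 loss at 3% O2, SLC2A1 was at -0.33 on the log2 scale without a call. SLC2A1 rose by 1.09 ± 0.12 (log2, SE) with low oxygen (edgeR adjusted p = 0.000613) and fell by 0.69 ± 0.12 with FDX2 loss at 20% O2 (edgeR adjusted p = 0.0014), a difference between both effects of 1.78 ± 0.12 (edgeR adjusted p = 2.07e-06).

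SLC2A3, a transporter with a high affinity for glucose, stood at 7.61, 7.32 and 7.70 CPM in 20% O2 + Doxy, at 13.9, 12.8 and 12.3 in 20% O2 wo Doxy, at 11.4, 12.4 and 13.2 in 3% O2 + Doxy and at 11.0, 12.3 and 12.1 in 3% O2 wo Doxy. The FDX2-proficient cells at 20% O2 were thus low and the 3 other conditions overlapped. SLC2A3 rose by 0.71 with low oxygen and by 0.78 ± 0.079 with FDX2 loss (edgeR adjusted p = 2.9e-05). The direct difference of both effects was -0.08 on the log2 scale, with a 95% interval of -0.25 to 0.10.

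At the first phosphorylation step acts HK2, a hexokinase induced in many tumours. It stood at 192, 173 and 159 CPM in 20% O2 + Doxy and at 127, 124 and 127 in 20% O2 wo Doxy. At 3% O2 it stood at 265, 278 and 296 CPM with Doxy and at 204, 225 and 227 without. As for SLC2A1, the 4 conditions did not overlap. HK2 rose by 0.68 with low oxygen and fell by 0.47 with FDX2 loss at 20% O2, and both effects differed by 1.15. The housekeeping hexokinase HK1 rose by 0.33 with low oxygen, a call that was lost when any of 4 libraries was left out (20% O2 + Doxy replicates 2 and 3, 3% O2 + Doxy replicates 2 and 3). For HK1 both effects differed by 0.23, a call lost without 20% O2 wo Doxy replicate 2 or 3, and the difference was 0.15 without a call when 3% O2 + Doxy replicate 3 was left out.

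GPI, which converts glucose 6-phosphate to fructose 6-phosphate, rose by 0.66 with low oxygen and fell by 0.46 with FDX2 loss at 20% O2, a difference of 1.11. Its rise was not called without 20% O2 + Doxy replicate 2 or 3. Among the phosphofructokinases, which commit the sugar to glycolysis, none passed the threshold in either of these comparisons. PFKL was at 0.57 with low oxygen, and the direct differences of both effects were called for PFKL (0.92) and PFKP (0.50) and not for PFKM (-0.08).

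The PFKFB enzymes make and remove fructose 2,6-bisphosphate, the strongest activator of phosphofructokinase. PFKFB4 stood at 3.55, 3.37 and 3.97 CPM in 20% O2 + Doxy, at 5.78, 6.29 and 5.98 in 20% O2 wo Doxy, at 20.2, 25.4 and 34.1 in 3% O2 + Doxy and at 21.1, 24.9 and 31.8 in 3% O2 wo Doxy. Both 3% O2 conditions were far above both 20% O2 conditions and overlapped each other. PFKFB4 had the largest increase with low oxygen of all 39 genes, 2.87 ± 0.20 (log2, SE, edgeR adjusted p = 1.86e-05). It rose by 0.73 ± 0.21 with FDX2 loss at 20% O2 (edgeR adjusted p = 0.0182), a call lost without 20% O2 + Doxy replicate 2 or 20% O2 wo Doxy replicate 2. The difference of both effects was 2.14 ± 0.19 (edgeR adjusted p = 1.14e-05).

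PFKFB2, the isozyme first known from heart, rose with FDX2 loss at 20% O2 as PFKFB4 did, but was not called with low oxygen. Its level was 9.53, 10.3 and 9.17 CPM in 20% O2 + Doxy, 19.7, 22.4 and 21.6 in 20% O2 wo Doxy, 10.3, 9.97 and 7.92 in 3% O2 + Doxy and 13.8, 11.1 and 12.1 in 3% O2 wo Doxy. FDX2-deficient cells at 20% O2 had the highest values, and both conditions with Doxy overlapped. PFKFB2 rose by 1.14 ± 0.11 with FDX2 loss (edgeR adjusted p = 2.08e-05) and was at -0.04 with low oxygen without a call. Both effects differed by -1.18 ± 0.11 (edgeR adjusted p = 1.61e-05). PFKFB3, the isozyme with the strongest kinase activity, did not pass the threshold in either, and its effects differed by 0.51.

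Of the 11 genes of the triose steps, 5 rose with low oxygen (45.5%, against 1.63% of all tested genes). With FDX2 loss at 20% O2, 6 of them fell (54.5%, against 17.7% of all tested genes). The aldolase ALDOC stood at 2.46, 2.07 and 2.17 CPM in 20% O2 + Doxy, at 2.98, 2.37 and 2.37 in 20% O2 wo Doxy, at 7.64, 9.47 and 11.3 in 3% O2 + Doxy and at 7.57, 7.58 and 8.67 in 3% O2 wo Doxy. Conditions of the same oxygen level overlapped, and those of different oxygen levels did not. ALDOC rose by 2.08 ± 0.15 with low oxygen (edgeR adjusted p = 3.18e-05), was at 0.20 with FDX2 loss without a call, and its effects differed by 1.87 ± 0.15 (edgeR adjusted p = 6.52e-06). ALDOA, of uncertain count, was called only in the direct comparison (0.92).

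TPI1, which interconverts the triose phosphates, rose by 0.48 with low oxygen and fell by 0.36 with FDX2 loss, a difference of 0.83. GAPDH, which reduces NAD+ as it oxidises the triose, stood at 4764, 4157 and 3928 CPM in 20% O2 + Doxy, at 3209, 3304 and 3126 in 20% O2 wo Doxy, at 4791, 5102 and 6362 in 3% O2 + Doxy and at 4734, 5234 and 5083 in 3% O2 wo Doxy. The 20% O2 wo Doxy libraries were the lowest, and the highest library of 20% O2 + Doxy lay just below the lowest of 3% O2 + Doxy. GAPDH fell by 0.41 with FDX2 loss and was at 0.34 with low oxygen without a call, and both effects differed by 0.75. A gene so often used as a reference thus differed between these conditions.

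PGK1, the first ATP-forming enzyme of the pathway, stood at 713, 728 and 700.0 CPM in 20% O2 + Doxy, at 504, 514 and 499.6 in 20% O2 wo Doxy, at 1390, 1613 and 1526 in 3% O2 + Doxy and at 1080, 1068 and 1251 in 3% O2 wo Doxy. The 4 conditions did not overlap. PGK1 rose by 1.08 with low oxygen and fell by 0.50 ± 0.067 with FDX2 loss (edgeR adjusted p = 0.000217), a difference of 1.58. PGAM1, which shifts the phosphate of the next intermediate, rose by 0.70 and fell by 0.40, a difference of 1.10. BPGM, which makes 2,3-bisphosphoglycerate, passed in neither comparison, and its direct difference was -0.38 ± 0.10 (edgeR adjusted p = 0.0133), lost without 20% O2 wo Doxy replicate 2 or 3% O2 + Doxy replicate 2.

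The enolases split. ENO1, the widely expressed isozyme, fell by 0.52 ± 0.081 with FDX2 loss (edgeR adjusted p = 0.000551) and was at 0.32 with low oxygen without a call, and its effects differed by 0.84. ENO2, the isozyme known from neurons, stood at 31.5, 31.0 and 28.2 CPM in 20% O2 + Doxy, at 32.5, 33.7 and 31.3 in 20% O2 wo Doxy, at 82.3, 95.4 and 104 in 3% O2 + Doxy and at 102, 94.1 and 105 in 3% O2 wo Doxy. Both 20% O2 conditions overlapped, as did both 3% O2 conditions. ENO2 rose by 1.64 ± 0.085 with low oxygen (edgeR adjusted p = 3.01e-06), was at 0.10 with FDX2 loss without a call, and its effects differed by 1.53. PKM, the pyruvate kinase whose isoforms gene counts do not resolve, fell by 0.36 with FDX2 loss and was at 0.31 with low oxygen without a call, a difference of 0.67.

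ENO3, the muscle enolase, had 113 CPM in 3% O2 wo Doxy replicate 1, the library that stood apart, and 31.2 and 23.5 in the other replicates, against 21.7 to 39.3 in the other conditions. It passed in no comparison. Its log2 difference between 3% and 20% O2 without Doxy was 1.06, and 0.035 without that library.

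At the lactate step, LDHA, which forms lactate from pyruvate, stood at 1496, 1629 and 1650 CPM in 20% O2 + Doxy, at 1191, 1164 and 1143 in 20% O2 wo Doxy, at 3393, 3641 and 3212 in 3% O2 + Doxy and at 2560, 2156 and 2434 in 3% O2 wo Doxy. All 4 conditions were apart. LDHA rose by 1.10 with low oxygen and fell by 0.45 with FDX2 loss at 20% O2, and both effects differed by 1.55. LDHB, the isozyme that favours the reverse reaction, passed in none of the 6 comparisons.

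SLC16A3 (MCT4), the lactate exporter of glycolytic cells, stood at 3.68, 2.83 and 2.62 CPM in 20% O2 + Doxy, at 3.27, 3.45 and 2.44 in 20% O2 wo Doxy, at 8.29, 11.0 and 12.3 in 3% O2 + Doxy and at 9.54, 11.5 and 12.9 in 3% O2 wo Doxy. As for ENO2, levels overlapped within an oxygen level and not between them. SLC16A3 rose by 1.79 ± 0.19 with low oxygen (edgeR adjusted p = 0.00046) and was at 0.01 with FDX2 loss, with a 95% interval of -0.44 to 0.45. Both effects differed by 1.79 ± 0.19 (edgeR adjusted p = 4.77e-05). SLC16A1 (MCT1), which carries lactate in either direction, and BSG, the chaperone of both carriers, passed in none of these 3 comparisons.

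Pyruvate entry is gated by the pyruvate dehydrogenase kinases. PDK1, a kinase known as a HIF-1 target, stood at 32.7, 35.0 and 36.2 CPM in 20% O2 + Doxy, at 36.0, 33.9 and 37.3 in 20% O2 wo Doxy, at 74.2, 81.4 and 74.1 in 3% O2 + Doxy and at 54.3, 57.3 and 62.3 in 3% O2 wo Doxy. Both 20% O2 conditions overlapped, and at 3% O2 the cells with Doxy were above those without. PDK1 rose by 1.14 with low oxygen and was at 0.04 with FDX2 loss at 20% O2 without a call, a difference of 1.10. PDK3 rose by 0.66 with low oxygen, a call lost without 20% O2 + Doxy replicate 1 or 2 or 3% O2 + Doxy replicate 2, and its effects differed by 0.66.

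PDK4, the kinase known for its rise in fasting and fat oxidation, had very few counts. Its level was 0.416, 0.471 and 0.235 CPM in 20% O2 + Doxy, 1.06, 0.980 and 1.11 in 20% O2 wo Doxy, 0.162, 0.0764 and 0.226 in 3% O2 + Doxy and 0.322, 0.516 and 0.499 in 3% O2 wo Doxy. The FDX2-deficient cells at 20% O2 stood above all others, and the cells with Doxy at 3% O2 below all others. PDK4 rose by 1.49 ± 0.34 with FDX2 loss at 20% O2 (edgeR adjusted p = 0.00599), was at -1.22 with low oxygen without a call, and its effects differed by -2.70 ± 0.39 (edgeR adjusted p = 0.000245).

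Of the pyruvate dehydrogenase subunits PDHA1, PDHB and DLAT, only PDHB was called in these 3 comparisons. It fell by 0.25 with FDX2 loss, a call lost without 20% O2 wo Doxy replicate 1, and the effects differed by 0.23, a call lost without any of 5 libraries (20% O2 wo Doxy replicates 1, 2 and 3 and 3% O2 + Doxy replicates 1 and 2). DLAT was at -0.25 with FDX2 loss at 20% O2 without a call (edgeR adjusted p = 0.0818). MPC1 and MPC2 form the mitochondrial pyruvate carrier. MPC2 passed only in the direct comparison, at -0.28 ± 0.058 (edgeR adjusted p = 0.00317), and MPC1 passed in none of the 6 comparisons.

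Glycogen genes also differed. PGM1, which links glucose 6-phosphate to glycogen, stood at 57.5 to 60.8 CPM in 20% O2 + Doxy and 59.0 to 61.7 in 20% O2 wo Doxy, and at 109 to 142 in 3% O2 + Doxy and 100.4 to 105 in 3% O2 wo Doxy. It rose by 1.09 with low oxygen, was at 0.04 with FDX2 loss without a call, and its effects differed by 1.05. The branching enzyme GBE1 rose by 0.48 with low oxygen, with a difference of 0.53. GYS1, the muscle-type glycogen synthase, stood at 78.2, 61.8 and 55.7 CPM in 20% O2 + Doxy, at 39.8, 37.9 and 38.4 in 20% O2 wo Doxy, at 70.1, 71.6 and 104 in 3% O2 + Doxy and at 67.2, 74.6 and 69.7 in 3% O2 wo Doxy. The FDX2-deficient cells at 20% O2 were the low group and the 3 others overlapped. GYS1 had the largest called decrease with FDX2 loss at 20% O2, 0.75 ± 0.15 lower on the log2 scale (edgeR adjusted p = 0.00314), was at 0.33 with low oxygen without a call, and its effects differed by 1.08.

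**Figure D2:**
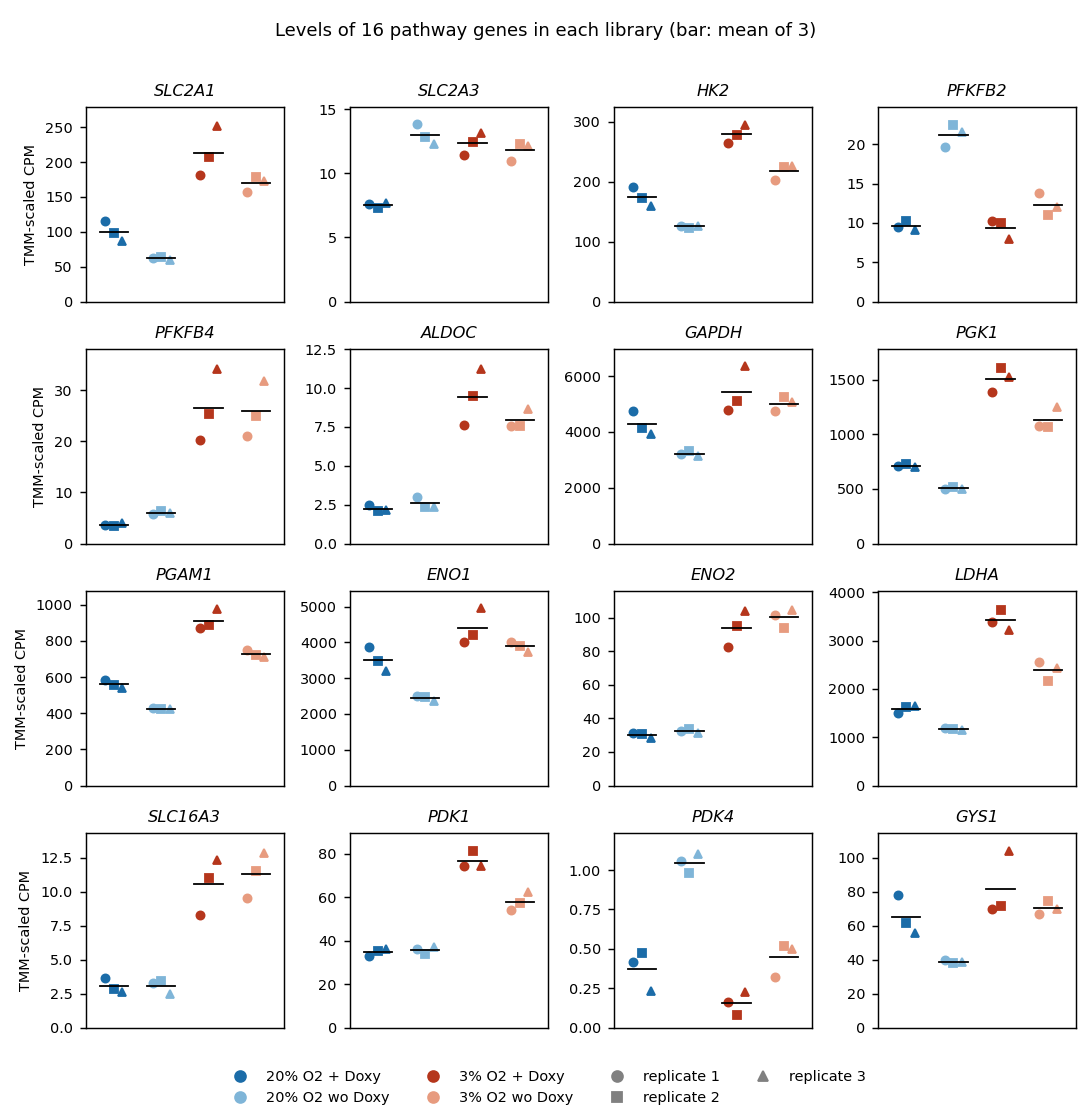
Levels of 16 of the genes in each library, in CPM scaled by TMM on axes that start at 0, with the mean of 3 as a bar. Circles, squares and triangles mark replicates 1, 2 and 3. ENO2 and SLC16A3 separate by oxygen alone, SLC2A1, HK2, PGK1, PGAM1 and LDHA separate into all 4 conditions, and PFKFB2 and PDK4 are highest in 20% O2 wo Doxy. With FDX2 loss at 3% O2, SLC2A1 was not called. How many of all tested genes separate in these ways was not counted.

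FDX2 loss was also examined at 3% O2. With 7 of 39 called, 1 higher and 6 lower, the share was 17.9% against 7.31% of all tested genes (4.2% higher and 3.11% lower). The median log2 fold change was -0.09, against 0.04 over all tested genes. Without 3% O2 + Doxy replicate 3, 10 were called, with BSG, DLAT and GBE1 added. This count depended on the processing. With a correction for GC content 19 genes were called (4 higher and 15 lower, beside 24 at 20% O2 under the same correction). With only the 6 libraries compared in the fit 3 were called. Shares of all tested genes under these settings are not given here, so these counts have no background beside them. The 32 genes without a call lay between -0.33 and 1.05, the highest being ENO3. MKI67, PCNA, TOP2A and CCNB1 were also lower with FDX2 loss at 3% O2, and their part in the result was not tested.

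The decreases at 3% O2 were those of LDHA by 0.52 ± 0.067 on the log2 scale (edgeR adjusted p = 0.00133), PGK1 by 0.41 ± 0.067 (edgeR adjusted p = 0.00487), PDK1 by 0.40 ± 0.068 (edgeR adjusted p = 0.00605), HK2 by 0.36 ± 0.072 (edgeR adjusted p = 0.0143), PGAM1 by 0.33 and SLC16A1 by 0.27. All 6 stayed lower in the fit without 3% O2 wo Doxy replicate 1. SLC16A1 had 200, 202 and 180 CPM with Doxy and 167, 154 and 162 without at 3% O2. Its call was lost without any of 4 libraries (3% O2 + Doxy replicates 1 and 2, 3% O2 wo Doxy replicates 2 and 3). PDK4 rose by 1.48 ± 0.41 (edgeR adjusted p = 0.0453), a call lost without any of the same 4 libraries and not made by DESeq2.

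For 3 of the 39 genes FDX2 loss had a different effect at 3% than at 20% O2, which is 7.69% against 7.29% of all tested genes and so at the background. All 3 had the lower response at 3% O2, against 4.08% of all tested genes. No gene had the higher response, against 3.21% of all tested genes, while 4 did at an unadjusted p under 0.05 and 2 were called by DESeq2. A correction for GC content gave 10 calls, 4 with the higher and 6 with the lower response. The share of all tested genes under that correction is not given here. MKI67, PCNA, TOP2A and CCNB1 had a less negative response at 3% O2, by 0.38 to 0.80, and their part in the result was not tested. The 36 genes without a call lay between -0.76 and 1.26. SLC2A3 responded by 0.78 at 20% O2 and was at -0.06 at 3% O2, a difference of -0.85 ± 0.11 (edgeR adjusted p = 0.0019). PFKFB2 responded by 1.14 at 20% O2 and was at 0.39 without a call at 3% O2, a difference of -0.75 ± 0.16 (edgeR adjusted p = 0.0173), lost without 20% O2 wo Doxy replicate 2 or 3 or 3% O2 + Doxy replicate 2. PDK1 was at 0.04 at 20% O2 and fell by 0.40 at 3% O2, a difference of -0.44 ± 0.097 (edgeR adjusted p = 0.0208).

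The PDK1 call was lost without any of 5 libraries (20% O2 + Doxy replicate 2, 20% O2 wo Doxy replicates 1 and 3, 3% O2 + Doxy replicate 2, 3% O2 wo Doxy replicate 2). Without 3% O2 + Doxy replicate 3 the count was 8, with TPI1, GAPDH, ENO1, PKM and GYS1 added, all 5 with the less negative response at 3% O2. With 20% O2 wo Doxy replicate 3 or 3% O2 + Doxy replicate 2 left out, SLC2A3 alone was called. For genes that fell with FDX2 loss at 20% O2 and were not called at 3% O2, such as GAPDH (-0.41 and -0.11) and PKM (-0.36 and 0.03), the difference itself was not called in the fit to all libraries.

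**Figure D3:**
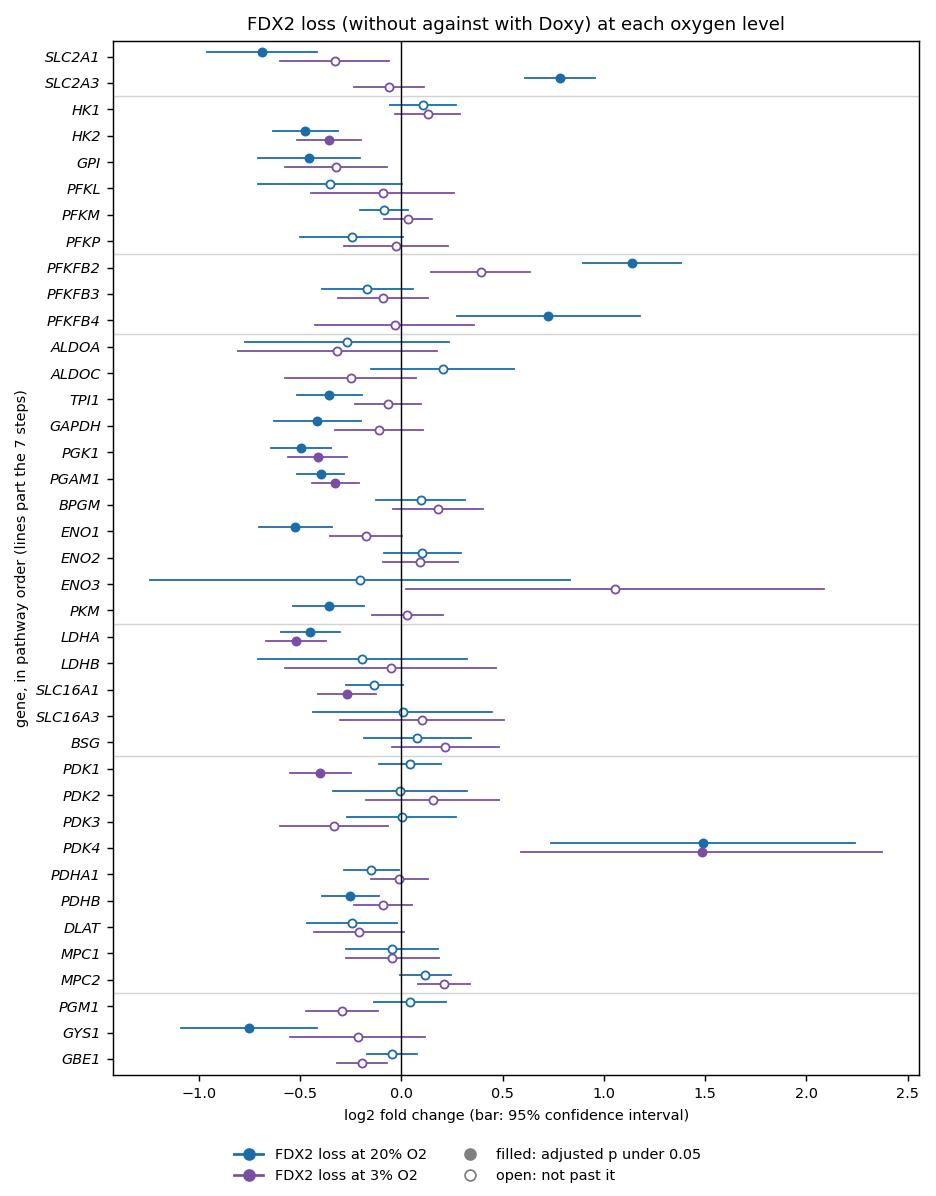
Log2 fold changes of the 39 genes with FDX2 loss at 20% O2 (blue) and at 3% O2 (violet), in pathway order with 95% confidence intervals. Filled circles mark an adjusted p under 0.05. HK2, PGK1, PGAM1 and LDHA are lower and PDK4 is higher at both oxygen levels, and SLC2A3 and PFKFB2 show the widest gaps among the called differences.

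In cells without Doxy, 24 of the 39 genes differed between 3% and 20% O2, 22 higher and 2 lower. This is 61.5% against 25.8% of all tested genes (13.9% higher and 11.9% lower), with a median log2 fold change of 0.60 against 0.07. MKI67, PCNA, TOP2A, CCNB1 and MCM2 were all higher at 3% O2 in these cells, and their part in the result was not tested. Same-numbered replicates of these conditions deviated together, and with the replicate as a block in a fit to these 6 libraries 27 genes were called. Without 3% O2 wo Doxy replicate 1, 25 were called, with ALDOA added. The 15 genes without a call lay between -0.30 and 1.06, the highest being ENO3.

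The largest increases without Doxy were those of PFKFB4 by 2.11 ± 0.19 (log2, SE, edgeR adjusted p = 4.23e-05), SLC16A3 by 1.89 ± 0.19 (edgeR adjusted p = 9.7e-05), ENO2 by 1.63 ± 0.084 (edgeR adjusted p = 1.62e-06) and ALDOC by 1.62 ± 0.15 (edgeR adjusted p = 5.9e-05). These 4 also had the largest increases with Doxy. Uptake and hexose steps followed with SLC2A1 by 1.45, HK1 by 0.35, HK2 by 0.80, GPI by 0.79, PFKL by 0.83, PFKP by 0.47 and PFKFB3 by 0.41. The calls of PFKP and PFKFB3 were lost without 3% O2 wo Doxy replicate 2.

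In the triose steps TPI1 rose by 0.77, GAPDH by 0.64, PGK1 by 1.16, PGAM1 by 0.77, ENO1 by 0.67 and PKM by 0.70. Beyond pyruvate LDHA rose by 1.03, PDK1 by 0.70, PGM1 by 0.76, GYS1 by 0.87 and GBE1 by 0.33. The 22 increases thus included at least 1 gene of each of the 7 steps. The 2 decreases were those of PFKFB2 by 0.79 ± 0.11 (edgeR adjusted p = 0.00058) and PDK4 by 1.22 ± 0.34 (edgeR adjusted p = 0.0226). The PDK4 call was lost without any of 4 libraries (20% O2 wo Doxy replicates 1, 2 and 3, 3% O2 wo Doxy replicate 2). SLC2A3 was at -0.14 without a call.

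Isozymes of one step contributed different shares of its CPM per kb in the 4 conditions. SLC2A3 made up 5.53% ± 0.79 (SD, n = 3) of both glucose transporters in 20% O2 + Doxy, 13.8% ± 0.69 in 20% O2 wo Doxy, 4.29% ± 0.39 in 3% O2 + Doxy and 5.07% ± 0.055 in 3% O2 wo Doxy. The share in FDX2-deficient cells at 20% O2 stood above all other libraries. HK2 made up 45.5% ± 0.46, 35.8% ± 0.79, 51.6% ± 1.2 and 43.1% ± 1.4 of both hexokinases in the same order of conditions. Its share was the lower one without Doxy at each oxygen level, with no overlap.

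Among PFKFB2, PFKFB3 and PFKFB4, the share of PFKFB4 was 5.61% ± 0.94 in 20% O2 + Doxy, 8.77% ± 0.32 in 20% O2 wo Doxy, 25.5% ± 3.5 in 3% O2 + Doxy and 25.8% ± 3.8 in 3% O2 wo Doxy. PFKFB2 made up 8.91% ± 1.1, 18.5% ± 1.2, 5.58% ± 1.4 and 7.46% ± 1.4 in that order, and PFKFB3 remained the most abundant of the 3 in each condition. LDHB made up 4.74% ± 0.76, 5.61% ± 0.12, 2.05% ± 0.65 and 2.83% ± 0.20 of both lactate dehydrogenases. LDHA made up the rest, with 94.3% of the sum in its lowest library. PDK1 made up 39.5% ± 4.4, 39.1% ± 1.8, 54.3% ± 3.4 and 46.5% ± 2.6 of the 4 kinases. The shares describe mRNA and were not tested.

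**Figure D4:**
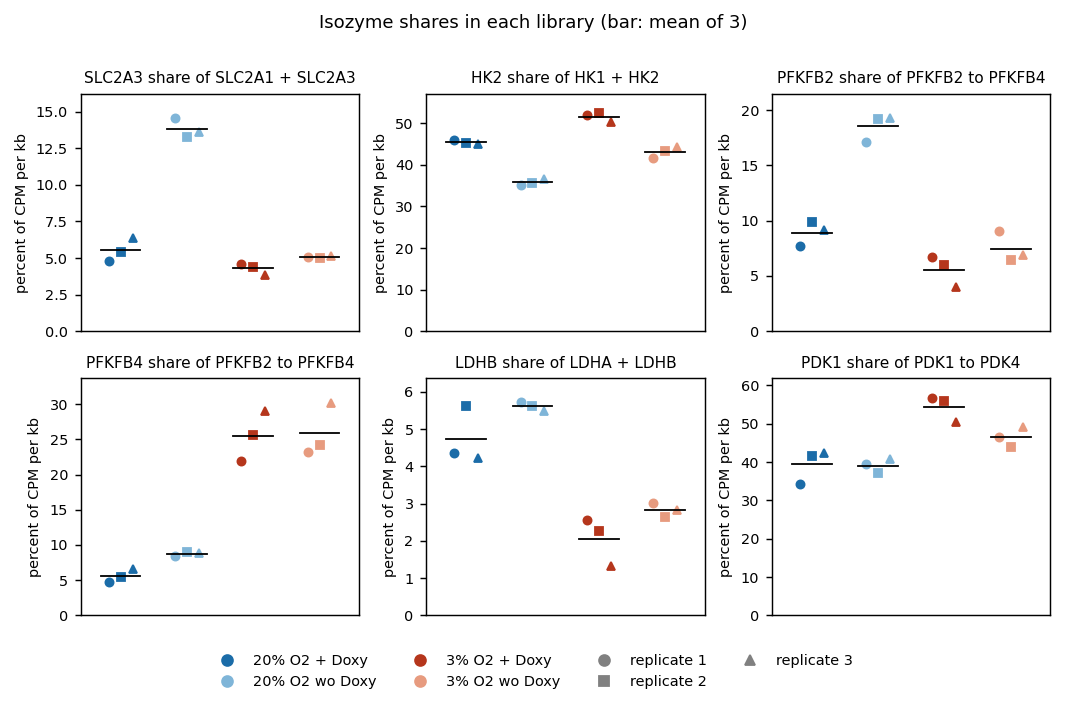
Share of 6 isozymes in the summed CPM per kb of their family in each library, in percent on axes that start at 0, with the mean of 3 as a bar. SLC2A3 and PFKFB2 peak in 20% O2 wo Doxy, PFKFB4 and PDK1 are highest at 3% O2, and LDHB is lowest there.

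The promoters of the 4 genes with the largest increases at 3% O2 with Doxy are shown because low oxygen moved these genes together. Each runs from 250 bases before to 50 bases after the gene's start in RefSeq (GRCh38.p14), which need not be the start used in ES2 cells, and is written 5′ to 3′ on the gene's strand. In the annotation of the counts (GENCODE 29, GRCh38) the genes span chr3:48517684-48562015 for PFKFB4 (ENSG00000114268), chr17:28573115-28577264 for ALDOC, chr17:82228397-82261129 for SLC16A3 and chr12:6913745-6923698 for ENO2. Capitals mark ACGTG or GCGTG on either strand, the core letters of hypoxia response elements, and overlapping matches (as in CACGTG) were counted on each strand.
PFKFB4 (chr3:48556754-48557053, minus strand): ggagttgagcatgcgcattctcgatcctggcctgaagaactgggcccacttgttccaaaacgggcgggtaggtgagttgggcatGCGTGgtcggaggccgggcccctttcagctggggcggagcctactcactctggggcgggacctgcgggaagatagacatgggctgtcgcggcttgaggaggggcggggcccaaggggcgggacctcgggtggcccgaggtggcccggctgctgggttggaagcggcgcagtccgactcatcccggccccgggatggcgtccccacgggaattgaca
ALDOC (chr17:28576846-28577145, minus strand): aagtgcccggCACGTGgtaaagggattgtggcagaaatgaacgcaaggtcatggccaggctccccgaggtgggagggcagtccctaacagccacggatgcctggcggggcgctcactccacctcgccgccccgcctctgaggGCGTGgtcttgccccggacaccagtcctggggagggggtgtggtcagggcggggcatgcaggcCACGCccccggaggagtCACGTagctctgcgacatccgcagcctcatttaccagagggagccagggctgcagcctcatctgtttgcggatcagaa
SLC16A3 (chr17:82228185-82228484, plus strand): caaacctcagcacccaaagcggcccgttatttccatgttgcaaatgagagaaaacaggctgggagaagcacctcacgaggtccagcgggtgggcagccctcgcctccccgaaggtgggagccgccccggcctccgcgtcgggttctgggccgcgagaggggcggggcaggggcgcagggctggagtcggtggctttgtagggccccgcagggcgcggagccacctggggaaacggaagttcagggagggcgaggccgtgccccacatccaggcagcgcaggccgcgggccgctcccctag
ENO2 (chr12:6914330-6914629, plus strand): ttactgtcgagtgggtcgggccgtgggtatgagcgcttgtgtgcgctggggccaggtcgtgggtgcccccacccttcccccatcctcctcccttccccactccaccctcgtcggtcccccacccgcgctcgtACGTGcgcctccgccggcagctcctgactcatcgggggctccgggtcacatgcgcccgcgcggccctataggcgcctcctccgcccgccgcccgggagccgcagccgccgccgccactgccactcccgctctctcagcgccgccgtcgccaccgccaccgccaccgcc

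The window of ALDOC held 5 matches, those of PFKFB4 and ENO2 held 1 each and that of SLC16A3 held none. Promoters of 36 of the 39 genes were in the table, and 24 of them (66.7%) held at least 1 match, against 48.4% of all 35116 promoters and 54.7% of those of protein-coding genes. Of the 16 genes with a promoter that rose at 3% O2 with Doxy 10 held a match (62.5%), and of the 20 that were not called 14 did (70.0%). For ACGTG alone the counts were 8 of 16 and 5 of 20 (25.0%), against 21.4% of all promoters. A match is a run of letters and not a bound site.

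The other genes of the pathway were described through 5 further lists of 67 genes, of which 43 were tested. They hold other isozymes (9 of 19 genes tested), other transporters (6 of 12), other pyruvate genes (7 of 10), other glycogen genes (13 of 17) and genes of the pentose phosphate pathway (8 of 9). Low oxygen with Doxy changed 2 of the 43, or 4.65% against 2.02% of all tested genes, both glycogen genes: PPP1R3B, which brings protein phosphatase 1 to glycogen, rose by 0.62, and the glycogen primer protein GYG1 fell by 0.26. The GYG1 call was lost without any of 4 libraries (20% O2 + Doxy replicates 2 and 3, 3% O2 + Doxy replicates 1 and 2).

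FDX2 loss at 20% O2 changed 12 of the 43, 5 upward and 7 downward, or 27.9% against 35.3% of all tested genes. By list, 1 rose and 1 fell of the other isozymes, 2 rose and 1 fell of the transporters, 1 rose and 1 fell of the pyruvate genes, 1 rose and 2 fell of the glycogen genes, and 2 pentose phosphate genes fell. The largest changes were those of PPP1R3B (1.13) and PGM2L1 (0.64), which makes glucose 1,6-bisphosphate, upward and of PC (-0.75), pyruvate carboxylase, and SLC2A8 (-0.65), an intracellular glucose transporter, downward. At 3% O2 only ADPGK, an ADP-dependent glucokinase, was called with FDX2 loss (-0.27). That is 2.33% of the 43 against 7.31% of all tested genes. The call of ADPGK was lost without 3% O2 wo Doxy replicate 1 or 2.

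Without Doxy, 9 of the 43 differed between 3% and 20% O2, 3 higher and 6 lower, or 20.9% against 25.8% of all tested genes. By list these were 1 higher and 1 lower of the other isozymes, 1 lower transporter, 1 higher and 1 lower pyruvate gene, and 1 higher and 3 lower glycogen genes. PGAM2, the muscle phosphoglycerate mutase, was higher by 2.02, and by 1.17 without 3% O2 wo Doxy replicate 1, in which it had 1.77 CPM against 0.595 and 0.437 in the other replicates. Its call was lost without 20% O2 wo Doxy replicate 1 or 3. With the replicate as a block in the fit to these 6 libraries neither PGAM2 nor PPP1R3B, 1 of the 3 lower glycogen genes, was called. PC was higher by 0.60, a call lost without 3 libraries in turn (20% O2 wo Doxy replicates 2 and 3, 3% O2 wo Doxy replicate 2). The largest decreases were those of PGM2L1 (-0.80) and PCK2 (-0.54), the mitochondrial enzyme that turns oxaloacetate into phosphoenolpyruvate.

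In the direct comparison of low oxygen with FDX2 loss 12 of the 43 differed, 6 in each direction, or 27.9% against 35.6% of all tested genes. They were 1 higher and 1 lower of the other isozymes, 1 higher and 2 lower transporters, 1 higher and 1 lower pyruvate gene, 2 higher and 2 lower glycogen genes and 1 higher pentose phosphate gene. SLC2A8 (0.57) and PC (0.49) were the most strongly higher under low oxygen, and PGM2L1 (-0.70) and PCK2 (-0.52) the most strongly higher after FDX2 loss. The calls of SLC2A8 and PC were lost without 20% O2 wo Doxy replicate 1 or 3 or 3% O2 + Doxy replicate 3, and that of PC also without 20% O2 wo Doxy replicate 2. The response to FDX2 loss differed between oxygen levels for PC (0.87), PPP1R3B (-0.94) and PGM2L1 (-0.73). These 3 are 6.98% of the 43 against 7.29% of all tested genes, so their number was at the background. The calls of PC and PGM2L1 were lost when almost any single library was left out. The exceptions were replicate 3 of 20% O2 + Doxy and of 3% O2 + Doxy for both genes and 3% O2 wo Doxy replicate 3 for PGM2L1. PPP1R3B kept its call without any of the 12 libraries.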

How the data were processed

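Gene counts of 12 RNA-seq libraries, 3 for each of 4 conditions grouped by the sample labels, were analysed. The deposited values were raw read counts per gene (58735 Ensembl genes), which the authors made with STAR and featureCounts on GRCh38 according to the submitters' processing notes, where DESeq2 is also named. The versions of STAR and featureCounts, the annotation and the strand setting are not given in the sources used here. Gene IDs were matched to GENCODE 29 and 58207 had a current symbol. Without a stated strand setting, reads from overlapping genes on opposite strands cannot be told apart.

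Genes were kept with edgeR 4.0.16 (filterByExpr, minimum count 10, minimum total 15), scaled by TMM and fitted with the quasi-likelihood test in R 4.3.3, with 4 condition means over 12 libraries, which leaves 8 residual degrees of freedom. The 6 comparisons were adjusted over 16891 genes by Benjamini-Hochberg and called at an adjusted p under 0.05. Levels are TMM-scaled CPM, divided by exonic length in kb wherever genes or isozymes are set against each other. The share of counts was compared by exact permutation tests. The script was tested on simulated data with 200 genes changed 2-fold in the comparison of FDX2 loss at 20% O2. It recovered 126 of them (63%) and made 6 false calls, so a gene without a call may still have changed.

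The members and lists were chosen with earlier results of these data known. Every called member is named with its log2 fold change, and the 4 largest called changes in each direction per comparison also with SE and adjusted p. Of the other pathway genes the 2 largest called changes in each direction are named. Alternatives were DESeq2 1.42.0 (its test and its size factors), other filters and thresholds, a GC correction, a replicate block, added pseudogene counts, fits to the compared libraries and leaving out each library. Same-numbered libraries correlated above 0.1 for every number only between 20% O2 wo Doxy and 3% O2 wo Doxy (0.248 to 0.371). Other numbers of these conditions gave -0.436 to 0.0844. A replicate block was therefore fitted to the libraries of that comparison, a choice that comes from the data and not from the labels. Differently numbered libraries of other conditions correlated more strongly, up to 0.817 (20% O2 + Doxy replicate 1 with 3% O2 + Doxy replicate 3). Such correlations thus do not show that libraries were paired.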

Additional observations from a re-analysis of the deposited data

Results flagged for a closer look

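For 3 of the genes the response to FDX2 loss differed between 3% and 20% O2 by a test of the difference itself. The test was edgeR's quasi-likelihood interaction contrast with Benjamini-Hochberg adjustment. These genes are 7.69% of the 39 against 7.29% of all tested genes, so their number was at the background. The difference was -0.85 on the log2 scale for SLC2A3, whose level was raised by FDX2 loss at 20% O2 and stood between 11.0 and 13.2 CPM in all 6 libraries at 3% O2. It was -0.75 for PFKFB2, whose 3 libraries of 20% O2 wo Doxy stood above the other 9. It was -0.44 for PDK1, which was lower without Doxy at 3% O2 only. The calls of PFKFB2 and PDK1 were lost when some single libraries were left out. No member of the group had such a difference in the opposite direction, with 4 at an unadjusted p under 0.05 and 2 called by DESeq2.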

How the results depend on the processing

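The 96 called pairs of gene and comparison were recomputed as 1666 values under the alternatives. Of these, 1557 values kept direction and call, 109 kept direction but lost the call and none reversed. The stricter thresholds used the main fit unchanged and so could not reverse a direction, and fits without 1 library share most of their data with it. The number of genes whose FDX2-loss response differed between oxygen levels was 3 as reported, 6 with DESeq2, 1 at an adjusted p under 0.01, 10 with a GC correction and 9 with the replicate block and GC correction together, and 1 to 8 when single libraries were left out. For FDX2 loss at 3% O2 the 7 calls became 4 at an adjusted p under 0.01, 1 with at least a 1.5-fold change, 19 with the GC correction, 16 with the block and GC correction, 3 with only the compared libraries, and 5 to 10 with single libraries left out. For FDX2 loss at 20% O2 the 16 calls became 6 with at least a 1.5-fold change, and lay between 15 and 17 with libraries left out. The cause of these shifts was not tested. Shares of all tested genes under the alternatives are not given here, so the counts under them have no background beside them. The ranges with libraries left out were 14 to 20 for 3% against 20% O2 with Doxy, 21 to 25 without Doxy and 26 to 30 for low oxygen against FDX2 loss.

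BSG, not called between 3% and 20% O2 without Doxy (0.27), was at -0.045 with the GC correction and at -0.046 with the block added. With the GC correction PFKL changed from 0.83 to 0.45 and GAPDH from 0.64 to 0.38 in that comparison. With the replicate block over all 12 libraries the counts were 16 for FDX2 loss at 20% O2, 5 at 3% O2, 15 with Doxy, 24 without Doxy, 3 for the difference and 28 for low oxygen against FDX2 loss. With the replicate as a block in a fit to the 6 libraries without Doxy it was 27 in place of 24. None of the 39 genes lost its call there, while PGAM2 and PPP1R3B of the other pathway genes did. The calls lost with the block were those of SLC16A1 and PDK4 (FDX2 loss at 3% O2), HK1 and PDK3 (low oxygen with Doxy) and HK1 (low oxygen against FDX2 loss). Low counts limit PDK4, with at most 34 counts in a library, where counting error is large.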
